A study of Homo sapiens with 26 samples.

Results

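The genes described here are 34 direct transcriptional targets of the tumour suppressor p53, listed by name and followed over 52 h in U2OS cells in neutral medium (pH 7.4) and acidic medium (pH 6.3). U2OS is an established human osteosarcoma line with a truncating mutation of PPM1D, and here it carries a luciferase reporter under the ARNTL (BMAL1) promoter. Symbols in the deposited table were matched to the list, and where a symbol was on several rows the row with the highest mean was taken, which gave 33 of the 34 among 19704 symbols. TIGAR was on a row with its older symbol C12orf5, matched by identifier (ENSG00000078237), and is reported apart from the counts. SPATA18 lay below the filter of 1 FPKM (fragments per kilobase of transcript, relative to library size), so 32 members were among the 11838 genes tested. Both groups got the same buffered medium with serum and dexamethasone, a glucocorticoid given to synchronise circadian clocks, in sealed dishes with no added CO2. There were 26 libraries of polyadenylated RNA, 13 for each pH, with 1 dish per pH every 4 h between 4 h and 52 h. One set of plates gave the dishes up to 24 h and another those from 28 h, each with both pH values. Since no time was repeated within a pH, SD and p-values reflect how values spread across times. The cells are bulk cultures, in which a change in the number of cells of one state and a change in RNA per cell cannot be told apart.

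The p53 protein is held low by the ubiquitin ligase MDM2, itself the product of a p53 target gene. When DNA damage, nucleolar stress or another signal stabilises it, p53 binds its response elements and raises transcription of genes for arrest of the cell cycle, cell death, DNA repair and its own feedback. The members fall into 5 classes: 7 arrest genes, 10 apoptosis genes, 4 repair genes, 5 feedback genes, and 8 genes of metabolism, mitochondria, autophagy and other functions, with TIGAR in the last.

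A p53 response element is built from a pair of decamers, copies of 1 consensus of 10 letters that reads the same on both strands, with a gap of up to 13 bases. RefSeq (GRCh38.p14) gave a window of 250 bases before to 50 bases after the start for 28 of the 34 members; GADD45A, TNFRSF10B, TP53INP1, PHLDA3, RRM2B and FBXO22 had no entry. A perfect decamer lay in 4 of the 28 windows (14.3%), against 6.54% of 27305 windows of all genes. A pair with at most 2 mismatches lay in 2 of them (AEN and FDXR), against 2.94% of all windows. Mismatches at the fixed C and G of the consensus were not allowed. The 150 bases before the start of these 4 genes follow. All 4 passed the test for a higher level at pH 6.3, as did 23 of the 32 members tested, with or without a decamer. The hour of their largest difference ranged from 8 h (PLK2 and AEN) to 20 h (FDXR) and 28 h (RPS27L). Each of these pairs holds a library of low depth or strong GC deviation, as set out below. Capitals mark the perfect decamer in PLK2 and RPS27L and the pair in AEN (no gap) and FDXR (a gap of 10 bases).
PLK2: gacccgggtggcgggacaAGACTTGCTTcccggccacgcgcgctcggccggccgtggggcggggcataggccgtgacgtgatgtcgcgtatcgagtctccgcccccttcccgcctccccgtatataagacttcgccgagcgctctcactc
RPS27L: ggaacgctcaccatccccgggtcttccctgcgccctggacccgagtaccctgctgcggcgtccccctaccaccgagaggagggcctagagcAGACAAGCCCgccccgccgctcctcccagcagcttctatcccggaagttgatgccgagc
AEN: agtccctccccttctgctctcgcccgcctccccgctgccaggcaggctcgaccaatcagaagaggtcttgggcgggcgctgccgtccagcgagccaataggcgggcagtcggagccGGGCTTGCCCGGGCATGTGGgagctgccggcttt
FDXR: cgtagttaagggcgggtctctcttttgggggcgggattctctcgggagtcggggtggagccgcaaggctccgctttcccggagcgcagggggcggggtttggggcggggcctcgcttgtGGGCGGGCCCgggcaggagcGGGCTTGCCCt
The PLK2 stretch is chr5:58460087-58460236 on the minus strand, and its capitals lie 132 to 123 bases before the start. The RPS27L stretch is chr15:63157478-63157627 on the minus strand, with the decamer 59 to 50 bases before the start. In AEN, at chr15:88621190-88621339 on the plus strand, the pair lies 34 to 15 bases before the start. In FDXR, at chr17:74872995-74873144 on the minus strand, the first decamer of the pair lies 31 to 22 and the perfect second 11 to 2 bases before the start. A match describes letters only, and the windows do not reach the intronic and distal elements that many p53 targets use.

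The table holds FPKM and no counts, so depth is an estimate. From the spacing of low values, 24 libraries held an estimated 19.5 to 35.8 M fragments (M for mega), pH 7.4 at 12 h held 9.71 M and pH 6.3 at 8 h held 11.1 M. In 4 libraries the deviation of genes from their mean correlated across genes with transcript GC content beyond ±0.5: pH 7.4 at 28 h (0.65), 44 h (−0.55) and 48 h (−0.64), and pH 6.3 at 20 h (0.58). Of 12 mesenchymal and bone markers 7 were tested, led by SPARC and VIM, and SP7, IBSP and TWIST1 were at or near 0. The summed level of that list was 1330 to 2465 FPKM at pH 7.4 and 1105 to 2466 at pH 6.3. Of 10 epithelial markers 4 were tested (158.8 to 314.6 against 148.5 to 326.2 FPKM in sum). Of 10 leukocyte markers 2 were tested (14.9 to 41.1 against 8.60 to 19.9 FPKM in sum), and CD3E was near 0. In limma's test of acid against neutral medium over the whole course, EPCAM, KRT8 and CLDN4 fell among the epithelial markers, LCP1 fell and CD68 rose among the leukocyte markers, and ALPL and COL1A1 fell among the mesenchymal ones. The part of these markers in the members' differences was not tested.

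The members differed widely in level, given in FPKM, a scale that is per length. RPS27L, a relative of the ribosomal protein gene RPS27, had the highest mean level at pH 7.4 (418 ± 61.5 FPKM; SD, n = 13). RRM2B followed at 181 ± 44.2, CCNG1 at 116 ± 16.3, BAX at 86.4 ± 41.3 and MDM2 at 84.9 ± 14.5 FPKM, of which BAX and MDM2 differed by less than their spread. At the low end were BBC3 (2.25 ± 1.15 FPKM), SERTAD1 (1.62 ± 0.96 FPKM) and SPATA18, which encodes a protein of mitochondrial quality control and did not exceed 0.290 FPKM in any library. At pH 6.3 RPS27L was again highest (545 ± 99.8 FPKM), RRM2B (336 ± 92.7) and CCNG1 (331 ± 76.7) were level within their spread, and CDKN1A came next (168 ± 49.7 FPKM).

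Most members stood higher in acid over the whole course, and arrest genes had the highest median of the 5 classes. In a limma test blocked by time point, 23 of 32 members rose at an adjusted p below 0.05 and 2 fell, TP53I3 and BLOC1S2. Of all genes tested 22.4% were called higher and 37.3% lower. The median difference of the members was 0.62 on the log2(FPKM + 1) scale, against −0.12 for all genes tested. All differences below are pH 6.3 minus pH 7.4 on that scale, which understates the change of low genes. Quantile normalization left 24 members higher and 2 lower (3348 and 3611 of all genes). It moved the median of all genes from −0.12 to −0.02 and the share of higher calls among all calls from 37.5% to 48.1%. Without the 6 libraries of low depth or strong GC deviation (7 time points left) 18 members rose and 1 fell (2320 and 3963 of all genes).

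By class, 6 of 7 arrest genes rose and none fell (median 1.00). Of 10 apoptosis genes 7 rose and 1 fell (median 0.49), and of 4 repair genes 3 rose (0.64). In the feedback class 4 of 5 rose (0.57), and in the last class 3 of 6 rose and 1 fell (0.32). BTG2, GADD45A, PLK2, CCNG1 and FBXO22 were higher at 13 of 13 times, as were 4.43% of all genes. A further 11 members were higher at 12 of 13, for which the share of all genes was not computed. For no member did all acid values lie above all neutral values, which held for 1.28% of all genes. The exception among those 11 was the 4 h pair for 7, the 28 h pair for BBC3, AEN and FDXR, and the 8 h pair for DDB2.

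**Figure D1:**
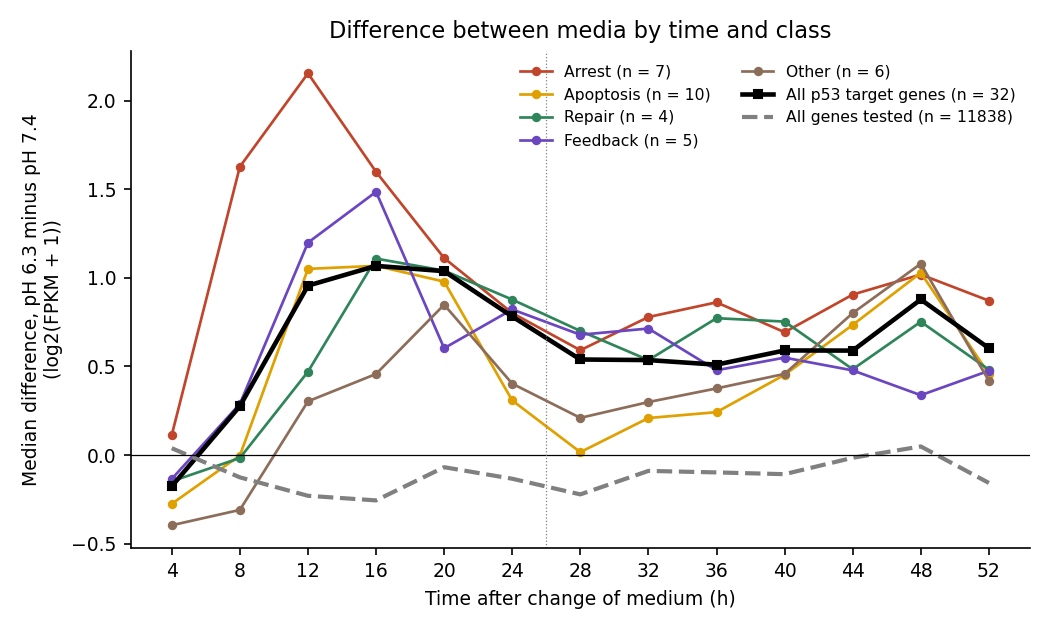
Median difference between media (pH 6.3 minus pH 7.4, log2(FPKM + 1)) by time for the 32 members, their 5 classes and the 11838 genes tested; the dotted line parts the 2 sets of plates. The members' median is −0.18 at 4 h, peaks at 1.07 at 16 h and is 0.60 at 52 h, and arrest genes peak at 12 h at 2.16.

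Hour by hour, the difference was not there at 4 h and was largest at 12 to 20 h. Each hour is 1 library per medium, so these values carry no replicate check. At 4 h 18 of 32 members were lower in acid, the median was −0.18 (all genes 0.04), and 2 members were at least 1.5-fold higher (9.24% of all genes). At 8 h the members' median was 0.28 and 12 members passed that fold (11% of all genes). These first hours thus show a split list, with GADD45A at 2.43 and XPC at −1.50 at 8 h.
From 12 h most members stood past 1.5-fold: 20 of 32 at 12 h (13.5% of all genes), 21 at 16 h (11.1%), 21 at 20 h (19.5%) and 19 at 24 h (13.8%). Their medians were 0.96, 1.07, 1.04 and 0.78. The 8 h acid and 12 h neutral libraries are those of low depth, and at 16 h neither library is. In the second set of plates the counts were lower: 16 at 28 h (15.9% of all genes), 14 at 32 h (15.9%), 14 at 36 h (16.6%), 16 at 40 h (15.1%) and 16 at 44 h (23.9%). At 48 h 19 members passed, but so did 29.4% of all genes, and at 52 h 16 did (17.2%). From 28 h to 52 h the members' median stayed between 0.51 and 0.88, and that of all genes between −0.22 and 0.05.

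**Figure D2:**
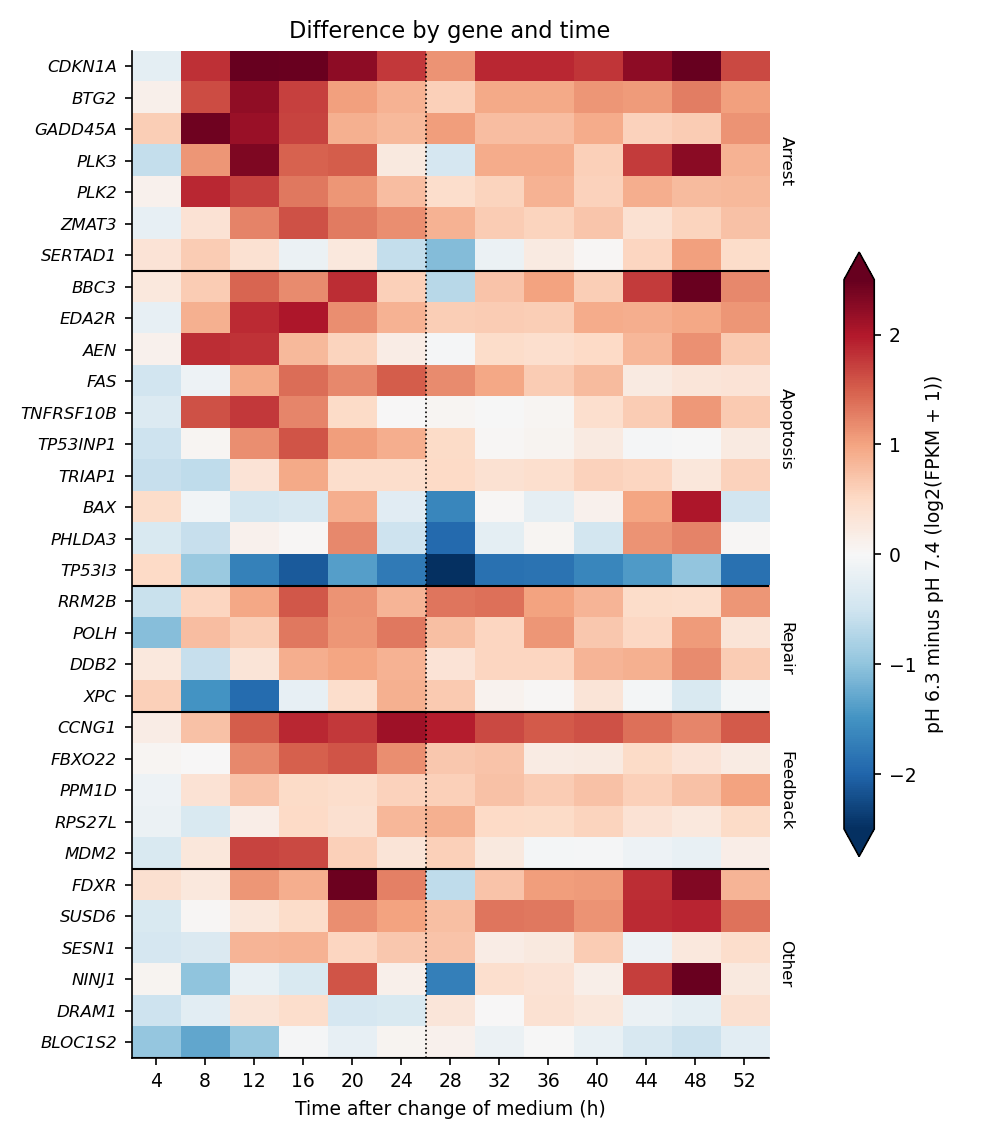
Difference between media (pH 6.3 minus pH 7.4, log2(FPKM + 1); colours saturate at 2.5) for 32 members in rows, grouped by class, at 13 times in columns; the dotted line parts the 2 sets of plates. CDKN1A, CCNG1 and BTG2 are red from 8 h on, TP53I3 is blue from 8 h on, and BAX, PHLDA3 and NINJ1 are blue at 28 h and red at 48 h.

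Among the arrest genes, CDKN1A led. It encodes p21, the cyclin-dependent kinase inhibitor through which p53 stops the cycle (ENSG00000124762, chromosome 6, 36676460 to 36687339, plus strand, GRCh38). Its level at pH 7.4 was 35.0 FPKM at the lowest, 41.7 at the median and 63.9 at the highest of 13 libraries, and at pH 6.3 it was 49.7, 163 and 265 FPKM. The groups overlapped only through the 4 h acid library, and the other 12 acid libraries lay above every neutral one. The course at pH 6.3 ran from 49.7 FPKM at 4 h to 144 at 8 h and 265 at 12 h, then 145 at 24 h and 205 at 48 h, while the neutral level was 38.5 FPKM at 12 h. At 12 h the ratio of the FPKM values was 6.87. Over the course CDKN1A rose by 1.84 (SE 0.19, adjusted p = 1.18e-06).

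BTG2, an antiproliferative partner of the mRNA deadenylase complex, had 7.29, 9.22 and 10.99 FPKM (lowest, median, highest) at pH 7.4 and 10.8, 21.3 and 42.1 at pH 6.3. Here too 12 acid libraries lay above all neutral ones, with the peak at 12 h (42.1 against 8.29 FPKM). The difference was 1.12 (SE 0.14, adjusted p = 6.9e-06).
GADD45A, a stress protein that binds PCNA and p21, was the earliest of the class. It was already at 49.9 against 32.2 FPKM at 4 h, and at 8 h at 76.8 against 13.4 FPKM, a ratio of 5.73. Its acid level then fell back to 22.8 FPKM at 20 h and stood at 47.0 at 52 h, with the neutral level also drifting from 11.8 FPKM at 20 h to 26.3 at 48 h. The groups overlapped, with 8 acid libraries above the neutral maximum, and the mean difference was 1.11 (SE 0.15, adjusted p = 1.81e-05).

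PLK2 and PLK3, stress-responsive relatives of the mitotic kinase PLK1, rose by 0.91 and 1.00. PLK2 peaked at 8 h (92.8 against 24.6 FPKM) and was at 26.8 against 11.9 FPKM at 20 h, higher in acid at all 13 times. PLK3 ranged from 3.28 to 15.4 FPKM at pH 7.4 and from 7.92 to 25.0 at pH 6.3, and at 4 h and 28 h it was lower in acid. Its neutral maximum was the 28 h library and its acid maximum the 20 h library, both GC-deviant. ZMAT3, an RNA-binding zinc finger gene, rose by 0.76 and was slower, with its largest difference at 16 h (30.4 against 9.36 FPKM). SERTAD1, which encodes a CDK4-binding coregulator, did not pass (0.15, SE 0.15, adjusted p = 0.391) and was under 6 FPKM throughout, at 5.69 FPKM in acid at 4 h and 0.802 at 28 h. Under quantile normalization alone it passed (0.38, adjusted p = 0.0142, the lowest of a range up to 0.879 over 21 alternatives).

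**Figure D3:**
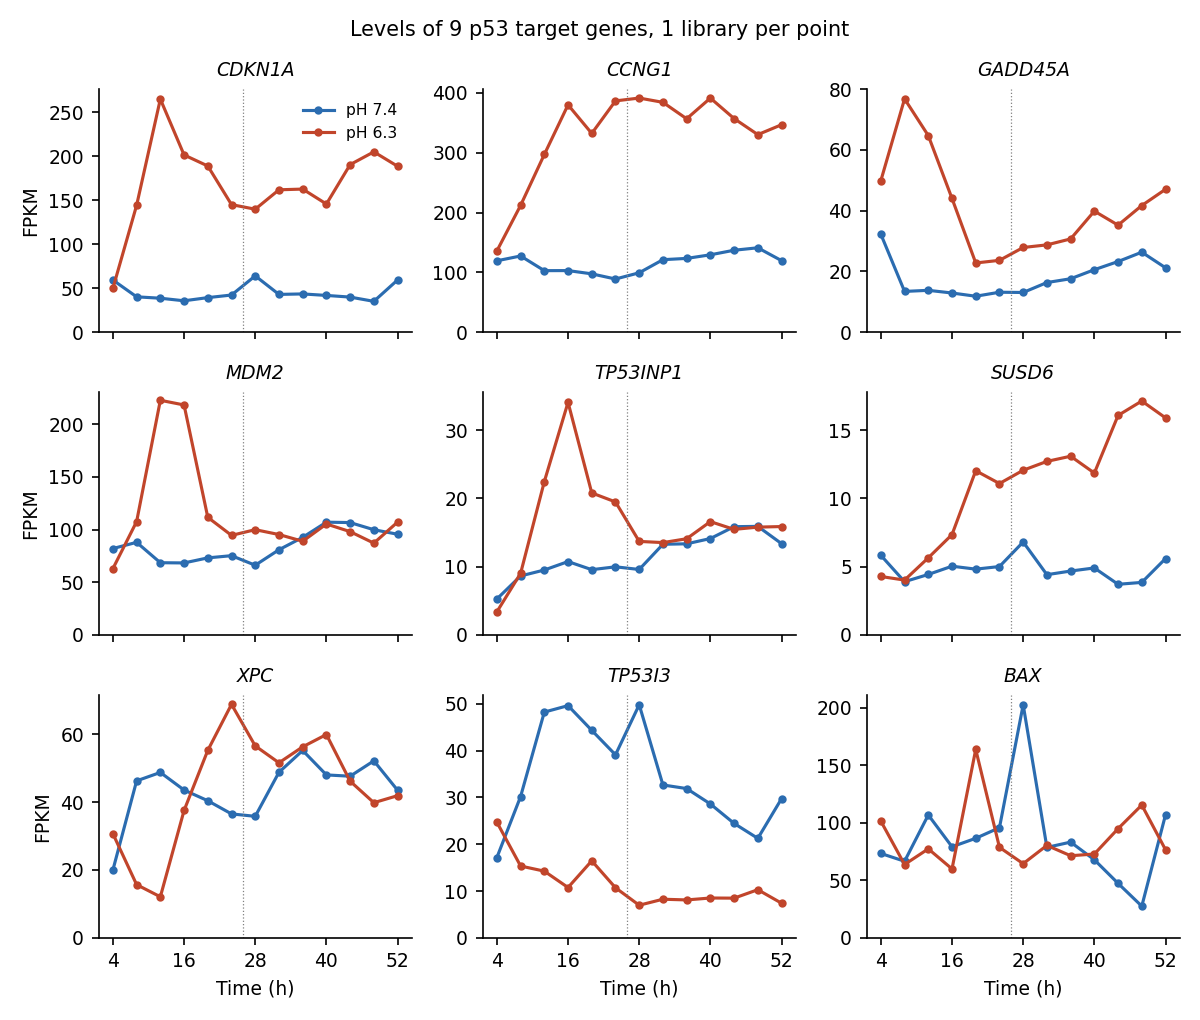
FPKM of 9 members by time at pH 7.4 (blue) and pH 6.3 (red), 1 library per point, each panel from 0 on its own scale; the dotted line parts the 2 sets of plates. CDKN1A and CCNG1 stay above the neutral level from 8 h on, MDM2 and TP53INP1 peak at 12 to 16 h and return to it, SUSD6 climbs late, XPC dips at 8 and 12 h, TP53I3 stays low and BAX moves with single libraries.

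The apoptosis genes split into receptors, effectors of the mitochondrial route and others. The death receptor genes FAS and TNFRSF10B both rose, with different timing. FAS had 18.3, 24.0 and 33.9 FPKM (lowest, median, highest) at pH 7.4 and 12.9, 43.4 and 57.0 at pH 6.3, and rose by 0.68 (SE 0.15, adjusted p = 0.00108). It was lower in acid at 4 and 8 h and highest at 16 h (57.0 against 21.1 FPKM). TNFRSF10B, the gene for the TRAIL receptor DR5, was highest at 12 h (119 against 34.1 FPKM), was level at 24 to 36 h (60.4 against 58.1 FPKM at 28 h) and stood at 96.7 against 45.0 FPKM at 48 h. Its mean difference was 0.59 (SE 0.16, adjusted p = 0.00571), and without the 6 libraries named above it was 0.29 and did not pass (adjusted p = 0.17, range over 22 alternatives 0.000454 to 0.17). EDA2R, a receptor of the same family, rose by 0.95 (SE 0.15, adjusted p = 5.03e-05), with 12 acid libraries above the neutral maximum of 11.6 FPKM and a peak of 38.0 FPKM at 12 h.

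BBC3, the gene for the BH3-only protein PUMA, rose by 1.00 (SE 0.20, adjusted p = 0.000457), from 0.922, 2.03 and 5.74 FPKM (lowest, median, highest) at pH 7.4 to 2.28, 5.12 and 9.61 at pH 6.3. The groups overlapped, and at 28 h the neutral library stood above the acid one (5.74 against 3.17 FPKM). BBC3 transcripts have 64.4% GC, and its neutral highest (28 h) and lowest (48 h) values both came from libraries of strong GC deviation. BAX, the pore-forming effector that PUMA helps to activate, did not pass (0.08, SE 0.22, adjusted p = 0.775), with 27.6, 79.2 and 203 FPKM at pH 7.4 and 60.0, 77.4 and 164 at pH 6.3. Its highest values came from the neutral 28 h and acid 20 h libraries and its lowest from the neutral 48 h library. Those are 3 of the 4 libraries of strong GC deviation, and BAX transcripts have 60.3% GC. AEN, a nuclease gene, rose by 0.71 (SE 0.15, adjusted p = 0.00072) and did so early, at 46.2 against 12.2 FPKM at 8 h.

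TP53INP1, whose product acts in p53 signalling and autophagy, had a short peak: 34.1 against 10.8 FPKM at 16 h, and 15.8 against 15.9 FPKM at 48 h. Its mean difference of 0.40 passed narrowly (SE 0.15, adjusted p = 0.0347) and failed in 9 of 22 alternatives, among them the fit without the time block (adjusted p = 0.101, range 0.0116 to 0.183) and those without the 12, 16, 20, 24 or 28 h pair. TRIAP1, placed here although its product restrains apoptosis, rose by 0.32 (SE 0.12, adjusted p = 0.0265), from 22.3 FPKM in acid at 4 h to 61.4 at 16 h against 33.9 and 31.3 FPKM. It failed in 4 of 22 alternatives (adjusted p up to 0.0608), among them those without the 16, 40 or 52 h pair. PHLDA3, which encodes an inhibitor of AKT, did not pass (−0.03, SE 0.22, adjusted p = 0.921) and moved with the same GC-deviant libraries as BAX, at 30.4 FPKM in the neutral 28 h library and 24.4 in the acid 20 h library.

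TP53I3 showed the larger of the 2 decreases in the list. Also known as PIG3, it encodes a quinone oxidoreductase that is induced by p53 and linked to oxidative stress (ENSG00000115129, chromosome 2, 24077433 to 24085861, minus strand). Its levels were 17.1, 31.9 and 49.8 FPKM (lowest, median, highest) at pH 7.4 and 6.96, 10.3 and 24.7 at pH 6.3. The groups overlapped only through the 4 h acid library, the single time when acid was higher (24.7 against 17.1 FPKM), and the other 12 acid libraries lay below the neutral minimum. At 16 h it stood at 10.7 against 49.6 FPKM and at 52 h at 7.39 against 29.7. It fell by 1.51 (SE 0.19, adjusted p = 7.35e-06) and passed in all 22 alternatives. Its exons overlap FAM228B on the opposite strand.

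Of the repair genes, RRM2B, which encodes the p53-inducible subunit of ribonucleotide reductase, had the highest level and rose by 0.85 (SE 0.14, adjusted p = 7.32e-05). It ran from 137 to 282 FPKM at pH 7.4 (median 160) and from 104 to 451 at pH 6.3 (median 368). The 4 h acid library was below every neutral one, 11 acid libraries were above the neutral maximum, and the largest difference came at 16 h (408 against 138 FPKM). POLH, the translesion polymerase gene, rose by 0.70 (SE 0.16, adjusted p = 0.00116), with 58.7 against 23.0 FPKM at 16 h. At 4 h it was lower in acid, at 10.5 against 23.1 FPKM, and without the 6 libraries the adjusted p was 0.0689 (range 3.19e-06 to 0.0689).

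DDB2 and XPC encode partners in damage recognition for nucleotide excision repair. DDB2 rose by 0.59 (SE 0.12, adjusted p = 0.000419), from a neutral median of 54.4 FPKM to 82.3, with 106 against 56.1 FPKM at 16 h. XPC (ENSG00000154767, chromosome 3, 14145147 to 14178783, minus strand) did not pass over the course (−0.09, SE 0.20, adjusted p = 0.726). Its values were 20.0, 46.3 and 55.2 FPKM (lowest, median, highest) at pH 7.4 and 12.1, 46.2 and 68.8 at pH 6.3, so that the medians were level. Single hours differed more: XPC stood at 30.7 against 20.0 FPKM at 4 h, 15.7 against 46.3 at 8 h, 12.1 against 48.7 at 12 h and 68.8 against 36.5 at 24 h. DDB2 was also lower in acid at 8 h (40.2 against 60.1 FPKM). Of the 2 low acid values, that at 8 h came from a library of low depth (11.1 M fragments) and that at 12 h from one of 19.5 M. XPC exons overlap those of LSM3 on the opposite strand.

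The feedback class holds genes that act back on p53. MDM2 (ENSG00000135679, chromosome 12, 68808176 to 68850686, plus strand) had 66.1, 82.0 and 107 FPKM (lowest, median, highest) at pH 7.4 and 62.9, 99.9 and 223 at pH 6.3. Only at 12 h (223 against 68.5 FPKM) and 16 h (218 against 68.3 FPKM) did it stand far above every neutral library. By 24 h it was at 94.5 against 75.2 FPKM, and from 36 to 48 h it was slightly lower in acid. Over the course the difference of 0.37 missed the threshold (SE 0.16, adjusted p = 0.0578). It passed in 5 of 22 alternatives, with GC correction (adjusted p = 0.0243), without the time block (0.0301) and without the 4, 44 or 48 h pair, and the range was 0.0243 to 0.267.

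CCNG1 encodes cyclin G1, which brings phosphatase 2A to MDM2 (ENSG00000113328, chromosome 5, 163437569 to 163446151, plus strand). It had 88.8, 119 and 141 FPKM (lowest, median, highest) at pH 7.4 and 136, 357 and 391 at pH 6.3. Of its acid libraries 12 lay above the neutral maximum, and the acid level stayed between 297 and 391 FPKM from 12 h to 52 h with no return. The difference was 1.47 (SE 0.13, adjusted p = 3.78e-07).
PPM1D, the gene for the phosphatase WIP1, rose by 0.57 (SE 0.08, adjusted p = 2.93e-05), with neutral levels of 27.4 to 48.0 FPKM and acid levels of 39.7 to 63.9. FBXO22, part of a ubiquitin ligase that acts on methylated p53, rose by 0.64 (SE 0.14, adjusted p = 0.00086), from 55.6 FPKM at the neutral median to 153 at 20 h and 67.6 in acid at 52 h. RPS27L rose by 0.37 (SE 0.09, adjusted p = 0.00221), from a median of 429 to 597 FPKM, though how reads were divided between it and RPS27 is not given in the sources used here.

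In the last class, SUSD6, a gene for a transmembrane protein with a sushi domain, rose late in the course (ENSG00000100647, chromosome 14, 69611596 to 69715142, plus strand). It had 3.71, 4.82 and 6.81 FPKM (lowest, median, highest) at pH 7.4 and 4.02, 12.0 and 17.1 at pH 6.3, and 10 acid libraries lay above the neutral maximum. In acid it stood at 4.02 FPKM at 8 h, 7.35 at 16 h, 12.0 at 20 h and 17.1 at 48 h. The difference was 0.94 (SE 0.17, adjusted p = 0.00025). FDXR, the mitochondrial ferredoxin reductase gene, rose by 1.04 (SE 0.21, adjusted p = 0.000454), from 2.17, 5.68 and 14.8 FPKM to 7.41, 12.8 and 34.02. Its neutral maximum was the 28 h library and its acid maximum the 20 h library, both GC-deviant. SESN1, a gene for a sestrin that restrains mTORC1, rose by 0.34 (SE 0.12, adjusted p = 0.0223), with 20.5 against 10.8 FPKM at 16 h. It did not pass without the 16 h pair (adjusted p = 0.0505) or without the 6 libraries (0.0619; range 0.00546 to 0.0619).

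BLOC1S2, which encodes a subunit of a complex for lysosome-related organelles, fell by 0.37 (SE 0.12, adjusted p = 0.0124). Its levels were 47.0, 54.9 and 77.8 FPKM (lowest, median, highest) at pH 7.4 and 31.0, 46.7 and 57.9 at pH 6.3. The gap was widest at 8 h (31.0 against 77.8 FPKM), while at 24 h the values were 53.7 and 51.4. Without the 6 libraries the difference was −0.22 and did not pass (adjusted p = 0.155, range 0.00219 to 0.155). DRAM1, a lysosomal membrane gene of autophagy (0.01, SE 0.11, adjusted p = 0.928), and NINJ1, whose product ruptures the membrane of dying cells (0.30, SE 0.27, adjusted p = 0.359), did not pass. TIGAR, a fructose bisphosphatase that lowers glycolytic flux, read from the row C12orf5, had 25.2, 29.7 and 33.0 FPKM at pH 7.4 and 18.6, 38.2 and 54.9 at pH 6.3. It was at 54.9 against 27.5 FPKM at 12 h and at 31.8 against 27.4 at 24 h, with a mean difference of 0.32 (SE 0.13, adjusted p = 0.0452).

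The courses differed in when they peaked. The largest difference in acid came at 8 h for 3 of the 23 members that rose, at 12 h for 4, at 16 h for 6, at 20 h for 2, at 24 h for 3, at 28 h for 1, at 48 h for 3 and at 52 h for 1. The 8 and 12 h pairs each hold a library of low depth, and the 20, 28 and 48 h pairs each hold 1 of strong GC deviation. The mean difference at 12 and 16 h was compared with that at 40 to 52 h as a description without a test. It went from 1.67 to −0.04 for MDM2, from 1.37 to 0.10 for TP53INP1, from 1.93 to 0.81 for GADD45A and from 1.34 to 0.31 for FBXO22. CDKN1A (2.61 to 2.04) and CCNG1 (1.70 to 1.43) kept most of theirs, and SUSD6 went from 0.38 to 1.56. Of the 32 members 19 had a lower value late than at 12 to 16 h, against 35.4% of all genes, and the members' median went from 1.09 to 0.68 where that of all genes went from −0.25 to −0.04. The members' medians were near their highest at 12 and 16 h (0.96 and 1.07). A lower value later is thus partly set by the choice of hours, which were not matched to the peaks of all genes.

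The 2 sets of plates were also tested apart. Within 4 to 24 h 14 members rose (8.57% of all genes) and TP53I3 fell (18.1% of all genes were lower), with a median of 0.70. Of the arrest genes 6 of 7 rose, of the apoptosis genes 4 of 10, of the repair genes 1 of 4, of the feedback genes 2 of 5 and of the last class 1 of 6. Without the 8 and 12 h pairs, which hold the 2 libraries of low depth, 4 pairs are left; there 1 member rose, the median was 0.61, and 108 genes of all were called higher. Leaving out other pairs within 4 to 24 h was not run. Within 28 to 52 h 22 members rose (27.0% of all genes) and TP53I3 fell (36.4% of all genes were lower), with a median of 0.60. There the counts were 6 of 7, 6 of 10, 3 of 4, 4 of 5 and 3 of 6 in the same order. Without the GC-deviant libraries 4 pairs are left, and 23 members rose and 1 fell (3525 and 4990 of all genes).

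**Figure D4:**
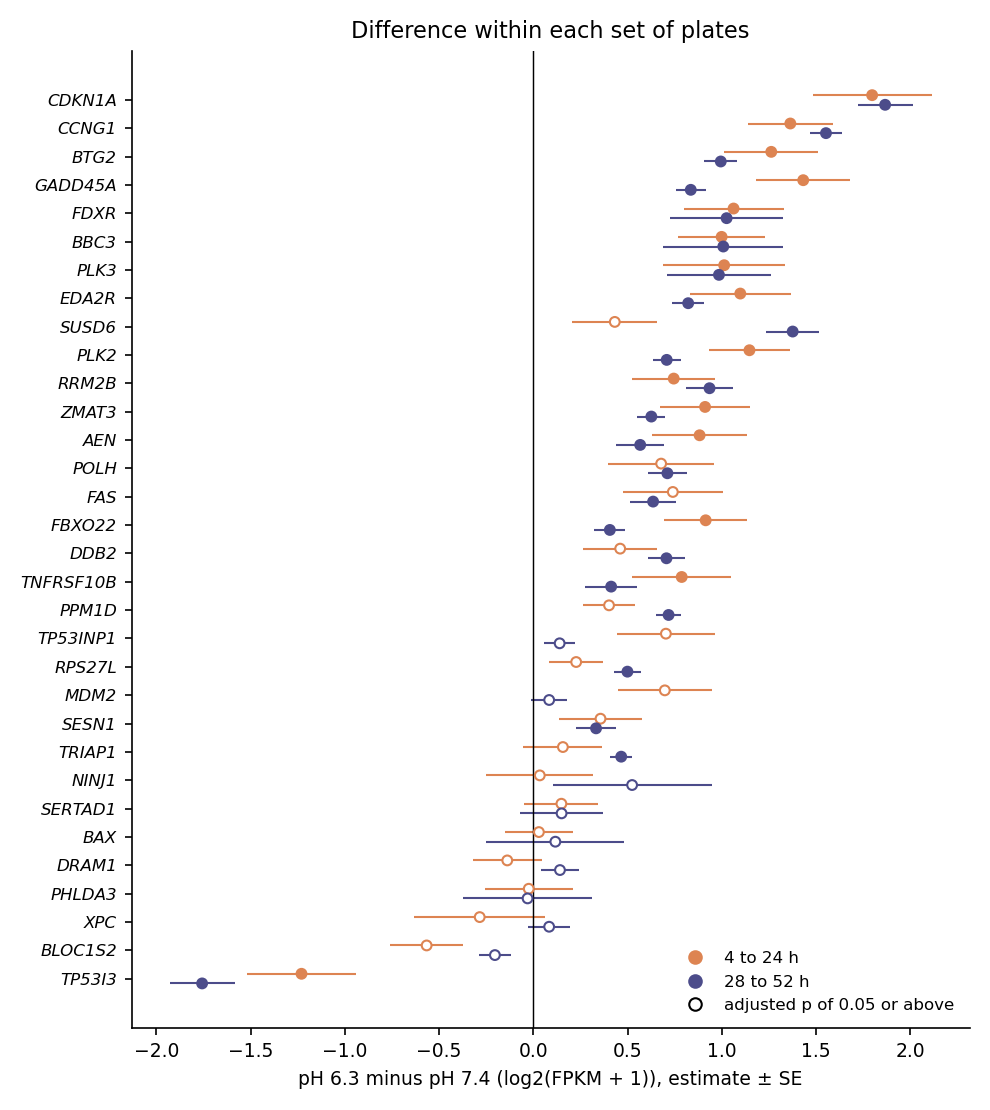
Difference between media (pH 6.3 minus pH 7.4, log2(FPKM + 1)) with its SE for 32 members within 4 to 24 h (orange, 6 pairs) and within 28 to 52 h (purple, 7 pairs); open circles did not pass. CDKN1A is at 1.80 and 1.87, MDM2 at 0.70 and 0.08, and SUSD6 at 0.43 and 1.38.

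Whether the difference itself changed between the sets was tested as the interaction of pH and plate set, in which later time and the other plates cannot be told apart. SUSD6 alone passed (0.94, SE 0.27, adjusted p = 0.0243), a count of 1 of 32 against 17.1% of all genes called in either direction. It did not pass without the 2 libraries of low depth (0.81, adjusted p = 0.129). MDM2 (−0.61, SE 0.29, adjusted p = 0.154) and GADD45A (−0.60, SE 0.27, adjusted p = 0.145) had the largest values of the opposite sign. For CDKN1A the difference between sets was 0.07 (SE 0.38).

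Within each medium, late and early libraries were compared too. At pH 7.4 no member passed in limma's test (7.59% of all genes did in either direction), while 4 members were higher and 2 lower at an unadjusted p below 0.05, a level that 21.9% of all genes reached in either direction. At pH 6.3 XPC, RRM2B, CCNG1, RPS27L, DRAM1 and SUSD6 rose from 4 to 24 h to 28 to 52 h (6 of 32, against 25.0% of all genes) and TP53I3 fell (16.6% of all genes were lower). SUSD6 went from 7.41 ± 3.44 FPKM (SD, n = 6) to 14.1 ± 2.18 (SD, n = 7), with a difference of 0.94 (SE 0.18, adjusted p = 0.000248). DRAM1 rose by 0.68 (SE 0.14, adjusted p = 0.000392) although it did not pass between media. At pH 7.4 its late minus early difference was 0.40 (SE 0.14, adjusted p = 0.0776), in the same direction.

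Some GC-rich members stood far from their means in single libraries. Deviations here are from each gene's mean over all 26 libraries, so they take in its difference between media. In the neutral 28 h library NINJ1 (62.6% GC) was 1.54, PHLDA3 (61.7%) 1.48 and BAX (60.3%) 1.32 above that mean. CCNG1 (40.8%) deviated by −0.94. GADD45A (58.4%) deviated by −0.93 there. CDKN1A (60.1%) deviated by −0.38, though its 63.9 FPKM in that library was its highest neutral level. In the neutral 48 h library FDXR (63.4%) deviated by −1.53, BAX by −1.52 and NINJ1 by −1.41. GADD45A deviated by 0.02 in that library. In the acid 20 h library FDXR was 1.93 and NINJ1 1.57 above, while AEN (60.3%) deviated by 0.10 and GADD45A by −0.18. GC correction left 24 members higher and 2 lower over the course (2880 and 4741 of all genes), with a median of 0.61. BAX, PHLDA3 and NINJ1 passed in 0 of 22 alternatives.

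**Figure D5:**
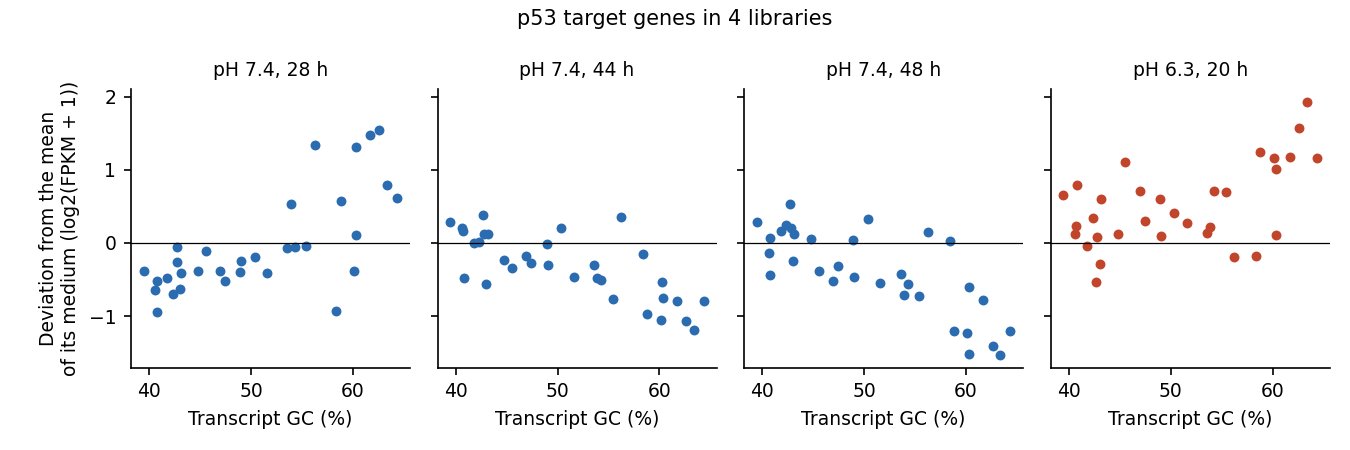
Deviation of 32 members from their mean over all 26 libraries (log2(FPKM + 1)) against the GC content of their transcripts (percent) in 4 single libraries. Points are blue at pH 7.4 and red at pH 6.3, 1 per gene. The axis label names the mean of the medium, but the mean used is that of both media together. NINJ1 lies at 1.54 in the neutral 28 h library and at −1.41 in the neutral 48 h library.

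In GENCODE 29, exons of 14 of the 34 members overlap another gene, and for 8 the other gene is protein coding on the opposite strand. The kit keeps strand, but whether quantification used it is not given, and without strand the reads of both genes cannot be told apart. Besides TP53I3 and XPC this holds for FAS (ACTA2), MDM2 (CPM), PLK3 (TCTEX1D4), POLH (GTPBP2), TNFRSF10B (RHOBTB2) and FBXO22 (NRG4).

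Of 20 tested regulators of p53, 5 rose and 5 fell (median −0.08), where 22.4% of all genes rose and 37.3% fell. ATM, the kinase that signals double-strand breaks to p53, rose from 27.2 ± 4.96 to 36.1 ± 9.90 FPKM (0.36, SE 0.09, adjusted p = 0.0032). MDM4, the partner of MDM2 (−0.08, SE 0.11, adjusted p = 0.546), and the checkpoint kinase gene CHEK2 (−0.14, SE 0.12, adjusted p = 0.306) did not pass. CDKN2A, whose ARF product restrains MDM2, averaged 0.00602 FPKM at pH 7.4 and 0.0174 at pH 6.3.

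Other genes known as p53 targets were mixed: of 47 tested 16 rose and 13 fell, with a median of 0.16. Among all genes 22.4% rose and 37.3% fell. The 4 largest increases were GDF15, a stress-induced cytokine (0.958 ± 0.654 to 9.37 ± 8.58 FPKM, 2.004, SE 0.29), the antiproliferative gene BTG1 (13.8 ± 2.67 to 31.7 ± 5.55 FPKM, 1.15), the growth factor gene TGFA (1.05) and SESN2, a relative of SESN1 (1.04). GDF15 passed the filter of 1 FPKM over all libraries only through its acid level, so its place in this ranking rests on that filter. The 4 largest decreases were STEAP3, an iron reductase gene (51.2 ± 17.6 to 24.9 ± 4.29 FPKM, −0.95), the calcium channel gene ORAI3 (−0.93), SFN, the gene for 14-3-3 sigma (−0.87, SE 0.28), and TM7SF3 (368 ± 87.9 to 212 ± 71.1 FPKM, −0.82). ORAI3 (62.0% GC) and SFN (62.8% GC) had their largest drops at 28 h (−1.77 and −3.53), where the neutral library is GC-deviant.

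Genes that p53 lowers through p21 and the DREAM repressor complex gave a split count: of 24 tested 9 rose and 11 fell. The shares of all genes were 22.4% higher and 37.3% lower, and no test set this list against them. The 9 are mitotic genes and 10 of the 11 are genes of DNA replication and the entry to S phase or their repair, a division made after the values were seen. Among 13 mitotic genes 9 rose and 1 fell, with CCNB1 rising from 289 ± 46.3 to 396 ± 86.2 FPKM (0.44, SE 0.08, adjusted p = 0.000262) and CDK1 not passing (−0.11, SE 0.15, adjusted p = 0.537). CDK1 was not level throughout. It passed as higher in acid within 4 to 24 h (means of 172 against 138 FPKM) and did not pass within 28 to 52 h (97.2 against 128). Its difference between media was called lower in the later set of plates. Among 11 replication genes none rose and 10 fell. MCM5, a subunit of the replicative helicase, fell from 41.6 ± 18.9 to 21.9 ± 16.6 FPKM (−1.03, SE 0.24, adjusted p = 0.00151) and E2F1, the S phase activator, from 13.6 ± 4.34 to 5.94 ± 6.27 FPKM (−1.41, SE 0.24, adjusted p = 0.000138). Both had their largest drop at 28 h (−2.97 and −2.87), in the pair with a GC-deviant neutral library.

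Some members answer to other stress factors as well. CDKN1A, GADD45A, BBC3, TNFRSF10B and SESN1 are also known targets of ATF4, CHOP or FOXO factors, and 5 of these 5 rose (median 1.00). Of the other 27 members 18 rose and 2 fell (median 0.59), where of all genes 22.4% rose and 37.3% fell. Which factor set the level of any member was not tested.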

How the data were processed

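Polyadenylated RNA of 26 U2OS dishes was sequenced with a stranded kit, per the labels' protocols. The authors deposited 1 table of FPKM values (19806 rows); per the submitters' processing notes they used STAR, Cufflinks and build hg38, with versions not given in the sources used here. Groups are the media named in the labels. The 11838 genes averaging 1 FPKM or more over all libraries were tested on the log2(FPKM + 1) scale in R 4.3.3 by limma 3.58.1 (trended empirical Bayes), adjusted over all of them by Benjamini-Hochberg at 0.05. The time point was a block, because the labels' protocols say that both media of a time were harvested together; deviations of same-time libraries from their group means correlated at −0.51 to 0.42 (median 0.03), above 0.1 for 4 of 13 pairs.

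Depth was estimated from 1831 genes that have 1 transcript only, 1000 bases or longer, taking the effective length as transcript length minus 200 bases; between 87.0% and 93.5% of values up to 3.5 fragments lay within 0.1 of a whole number. In each library 81 to 128 values lay within 0.1 of 1 fragment, and 2 to 12 within 0.1 of the places between whole numbers, up to 2 fragments, that a step 3 times finer would fill. No count test was run. Coordinates and GC content are from GENCODE 29 (GRCh38). Steps were tested on simulated data. The members and lists were chosen with earlier results of these data known. Every member was named; regulators by MDM4, ATM, CHEK2 and CDKN2A (a few genes that the rules took are not reported here), other targets by the 4 largest increases and decreases that passed, and repressed genes by CCNB1, CDK1, MCM5 and E2F1.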

Additional observations from a re-analysis of the deposited data

Results flagged for a closer look

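SUSD6 differed between the sets of plates in its response to acid: its difference between media was larger by 0.94 (0.9440, log2 scale) at 28 to 52 h than at 4 to 24 h. In acid it stood at 4.29 FPKM at 4 h and 15.9 FPKM at 52 h, and in neutral medium at 5.84 and 5.60 FPKM. It did not pass without the 2 libraries of low depth (0.81, adjusted p = 0.129 in limma's test) or without the 6 libraries of low depth or strong GC deviation (0.91, adjusted p = 0.14). Later time and the other set of plates cannot be told apart.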

How the results depend on the processing

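Of the member results under alternatives, 682 kept their side of the threshold, 20 lost and 6 gained a call, and no call turned in sign. Some results that passed in neither fit did change sign. BAX went from 0.08 to −0.02 with GC correction, and XPC from −0.09 to 0.21 without the 2 libraries of low depth. Over the whole course the members that rose numbered 20 to 24 when each pair was left out in turn and 18 to 24 in all, and those that fell numbered 2, or 1 without the 6 libraries of low depth or strong GC deviation. Without the replicate block 23 rose and 2 fell, against 2685 and 4492 of all genes. There 2 members also fell within 4 to 24 h and within 28 to 52 h. MDM2 and TP53INP1 were the calls that changed. Without the 2 libraries of low depth, within 4 to 24 h (4 pairs left), 1 member rose and 0 fell (108 and 119 of all genes), the plate set difference was called for 0 members (457 genes higher, 250 lower), 247 genes were lower late than early at pH 7.4, and 2 members were at pH 6.3. Without the 6 libraries, chosen for these tests after seeing the data, 0 members rose and 0 fell within 4 to 24 h (3 pairs left; 4 and 1 of all genes), the plate set difference was called for 0 members (2 genes higher, 0 lower), and late against early at pH 7.4 gave 288 genes higher and 204 lower. Fewer samples are part of these alternatives by construction. GC correction, also added for these tests after seeing the data, gave 1175 genes lower in the plate set difference, 2 members lower within 28 to 52 h, 1 member and 592 genes lower late than early at pH 7.4, and 2 members lower at pH 6.3. Quantile normalization gave 1 member higher late than early at pH 7.4, and moved the share of higher calls from 32.2% to 49.2% within 4 to 24 h and from 61.6% to 51.5% for the plate set difference. The cause was not tested.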

Other observations

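Late and early libraries were also compared for other genes around p53. In limma's test at pH 6.3, 25.0% of all genes were higher late and 16.6% lower. Of the 24 genes repressed through p21 and DREAM, 13 were lower at 28 to 52 h than at 4 to 24 h and 1 was higher, with a median of −0.45 against 0.05 for all genes, and at pH 7.4 the counts were 4 lower and 0 higher (7.59% of all genes passed there in either direction). Of the 20 regulators 6 were higher late and 2 lower at pH 6.3. Of the 47 other p53 targets 9 were higher and 9 lower, and no test set either list against all genes.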
